A study of Sus scrofa with 32 samples.

Results

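Blood CD2+ γδ T cells were the T cells of pig blood that carried transcripts of both the γδ T cell receptor constant gene TRDC and the adhesion molecule CD2. The cells were selected on transcript counts. A cell barcode was a member if it passed the study's limits on UMIs (unique molecular identifiers, 1 per captured transcript), genes and mitochondrial UMIs. It also had to hold at least 1 UMI each of CD3E, TRDC and CD2, and none of CD4, CD8B, CD79B, BLK or RHEX. This rule kept 368 cells, 217 from pig 1 and 151 from pig 2, of 13243 blood cells and 48629 cells of the whole series that passed the same quality limits.

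The study sequenced single cells of the distal ileum and of peripheral blood mononuclear cells (PBMC) to describe lymphocytes of the pig intestine beside their counterparts in blood. Both pigs were untreated, of mixed breed and 7 weeks old, and pig 1 was labelled female and pig 2 male. Each pig gave 1 PBMC library and 3 ileal libraries, which came from ileum with Peyer's patches (PP), ileum without them (non-PP) and a whole cross section (whole ileum). PBMC were taken by density separation in tubes, whereas ileal cells went through warm dissociation steps and an enrichment for viable lymphocytes. Sex and animal cannot be told apart here, since there was 1 pig of each sex.

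γδ T cells carry a T cell receptor of γ and δ chains in place of α and β chains and can respond without classical presentation of peptides. In pigs they make up a large part of circulating T cells and are divided by CD2. CD2- γδ T cells usually lack CD8, whereas CD2+ γδ T cells may carry CD8α and are known for cytotoxic function. CCL5, a chemokine of effector lymphocytes, is a known transcript of cytotoxic cells.

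The members were compared with 3 other blood classes defined by transcripts and with ileal cells that met the same rule. CD2- γδ T cells (TRDC and CD3E present, CD2 absent, BLK or RHEX present) numbered 238 in pig 1 and 314 in pig 2. CD8 αβ T cells (CD3E and CD8B present, TRDC absent) numbered 420 and 645. NK cells (CD2 and at least 1 of KLRB1, KLRK1 and NCR1 present, CD3E and CD3D absent) numbered 322 and 401. Ileal CD2+ γδ T cells numbered 1713 and 1308. UMIs were summed over the cells of a class within a pig, so the pig was the replicate (n = 2 per class). Levels are given in CPM, a gene's UMIs relative to all UMIs of the sum, with TMM scaling between sums. Adjusted p-values are Benjamini-Hochberg values from the quasi-likelihood test of edgeR over all genes tested, and genes of the class rules were left out of the tests. Because both pigs gave every class, a second fit used the pig as a block. It is given for the counts of each comparison and for part of the named genes and lists. Counts within gene lists are from the fit without a block unless the block is named, and many changed with it. Against NK cells, for example, 3 NK and innate receptors were lower without the block and 8 with it.

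The 2 PBMC libraries held 36465389 and 38240907 UMIs, and the 6 ileal libraries 21134542 to 40111934. Members had a median of 4328 UMIs in pig 1 and 3321 in pig 2, against 2046 and 2276 in CD2- γδ T cells. Their sums held 1253024 and 631535 UMIs. Of all members, 5 in pig 1 and 7 in pig 2 scored as doublets and were kept, and none of their barcodes was shared between the PBMC libraries. The whole ileum library of pig 1 went against its label, with 207 CPM of 4 Y-linked genes. The other 3 libraries of pig 1 had 0 to 0.224 CPM, and those of pig 2 had 119 to 226. Its cells enter the ileal sum of pig 1 and the spread that all classes share in the fit, so the counts of each comparison are also given without it, blood comparisons included.

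Most members held several TRDC UMIs, although TRDC was part of the selection. At least 5 TRDC UMIs were counted in 152 of 217 members of pig 1 and in 109 of 151 of pig 2, and the median was 8 in both pigs. A further 35 and 19 members rested on 1 TRDC UMI, just inside the rule. Just outside it, 1355 and 984 cells met all other conditions with no TRDC UMI. Among B cells, which should lack TRDC, 6.97% in pig 1 and 2.74% in pig 2 had at least 1 UMI. CD2 rested on 1 UMI in 79 and 37 members. γδ receptor chains other than TRDC and αβ receptor genes were not named among the genes tested, so that a receptor check beyond TRDC was not made. Fewer cells with a gene and less RNA per cell cannot be told apart in the sums.

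CCL5, the marker named for these cells, did not mark them equally in both animals. Its level was 17110 CPM in members of pig 1 and 2868 CPM in members of pig 2. After each cell was thinned to the study's minimum number of UMIs per cell, CCL5 was found in 91.7% of members of pig 1 (95% exact binomial interval 87.2 to 95) and in 35.1% of pig 2 (27.5 to 43.3). Among B cells of the same libraries, which serve as the background of free RNA, it was found in 38.0% and 22.1%. Intervals cover counting error only. Before thinning, CCL5 was found in 95.9% and 61.6% of members.

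The members of the 2 pigs differed widely in what they expressed. Members of pig 1 had higher levels of cytotoxic, natural killer receptor and cell cycle genes, and members of pig 2 had higher levels of genes of naive and circulating T cells. With 1 pig on each side, these differences have no replicate check and are given without a test. Over 8212 genes, on the scale of CPM plus 10, 267 (3.25%) were more than 2-fold higher in pig 1 and 265 (3.23%) more than 2-fold higher in pig 2. Together they made 6.48% of genes, against 2.81% for CD2- γδ T cells, 1.74% for CD8 αβ T cells, 2.39% for NK cells and 0.950% for ileal CD2+ γδ T cells. With all sums thinned to 577149 UMIs the share was 8.24% for members and 2.72% to 4.46% for those 4 classes. Thinning did not equalize the number of cells per sum, which was lowest for members. The part of cell number in this spread was not tested.

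Genes of cytotoxic cells led the side of pig 1. KLRK1, which encodes the activating receptor NKG2D, was at 1073 CPM in pig 1 and 189 CPM in pig 2. It was found in 63.1% (56.3 to 69.6) and 12.6% (7.75 to 19.0) of thinned members, and in 2.81% and 1.13% of B cells. GNLY, which encodes the pore-forming peptide granulysin, was at 9006 CPM in pig 1 and 2189 CPM in pig 2. Its detection of 37.1% in pig 2 was near the 30.0% of B cells, whereas the 72.4% of pig 1 stood clear of 31.5%. NKG7, a granule membrane protein, was found in 68.7% (62.0 to 74.8) and 28.5% (21.4 to 36.4) of members, with about 5% in B cells (5.28% and 5.48%). FCER1G, an adaptor chain of Fc and NK receptors, was found in 48.8% and 15.9%. GZMB, the serine protease granzyme B, differed less, at 771 and 621 CPM. The transcription factor TBX21 (T-bet) was at 135 CPM in pig 1 and 30.5 CPM in pig 2, and the chemokine receptor CX3CR1 at 172 and 24.4 CPM. Over the lists used, 5 of 15 cytotoxic granule genes and 7 of 16 NK and innate receptors were more than 2-fold higher in pig 1, and 0 and 1 more than 2-fold higher in pig 2. Other blood cells showed part of this. NK and innate receptors were more than 2-fold higher in pig 1 for 4 of 16 genes in CD2- γδ T cells, 5 in CD8 αβ T cells and 2 in NK cells, and cytotoxic granule genes for 2 of 15, 0 and 1. Among members, the single gene on the side of pig 2 was TYROBP, an adaptor that monocytes also express, at 90.8 and 262 CPM.

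The cell cycle was on the same side. Of 12 cell cycle genes, 8 were more than 2-fold higher in pig 1 and 0 in pig 2. PCLAF, a partner of the replication clamp, was at 576 and 200 CPM and was found in 24.0% and 3.31% of thinned members. The mitotic genes TOP2A (117 and 19.8 CPM), BIRC5 (204 and 32.0 CPM) and UBE2C (119 and 21.4 CPM) showed the same order. The order was shared with other γδ T cells, since 5 of these 12 genes were more than 2-fold higher in pig 1 in CD2- γδ T cells and 4 in ileal CD2+ γδ T cells. In CD8 αβ and NK cells of the blood 0 of the 12 differed more than 2-fold between the pigs.

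Members of pig 2 stood on the side of naive and circulating T cells. CCR7, the receptor that guides lymphocytes into lymph nodes, was at 15.7 CPM in pig 1 and 154 CPM in pig 2. It was found in 3.23% (1.31 to 6.53) and 20.5% (14.4 to 27.9) of thinned members, with 4.71% and 8.79% in B cells, which express CCR7 themselves. The transcription factors TCF7 and LEF1, typical of resting T cells, were at 73.6 and 342 CPM, and at 31.3 and 131 CPM. IL7R, the receptor chain for interleukin 7, was at 10.2 and 61.0 CPM, and ID3, an inhibitor of E protein transcription factors, at 98.7 and 426 CPM. Of 11 naive and circulating T cell genes, 7 were more than 2-fold higher in pig 2 and 0 in pig 1. The same list gave 1 and 0 such genes in CD2- γδ T cells and none in CD8 αβ or NK cells.

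Some of the differences between the pigs were also seen in other cells. Interferon-stimulated genes were more than 2-fold higher in pig 2 for 6 of 10 genes in members and for 7 of 10 in both CD8 αβ and NK cells. ISG15 was at 456 and 1207 CPM in members and at 390 and 1598 CPM in CD8 αβ T cells. HBB, the β-globin gene of red cells, was at 6954 and 273 CPM in members and at 14507 and 1838 CPM in CD8 αβ T cells. The 9 monocyte markers summed to 424 CPM in members of pig 1 and 793 CPM in pig 2, with none of the 9 at 0. KLRK1 differed in the same direction in CD8 αβ T cells (596 and 81.8 CPM). CCR7 and TCF7 did not follow, at 77.8 and 54.2 CPM and at 95.2 and 69.8 CPM in CD8 αβ T cells. The part of red cell, monocyte or interferon-related RNA in the difference between the pigs' members was not tested.

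The same genes were counted in members with many TRDC UMIs. Among the 152 and 109 members with at least 5 TRDC UMIs, KLRK1 was found in 88.8% and 20.2%, CCL5 in 96.1% and 58.7%, CCR7 in 5.92% and 36.7% and TCF7 in 29.6% and 75.2%, before thinning. In pig 1, 6 of the 13 members with CCR7 also had KLRK1, and 189 of all 217 had KLRK1. In pig 2, 3 of the 60 members with CCR7 also had KLRK1, and 31 of all 151 had KLRK1. GZMB was found in 33 of these 60 members with CCR7, and in 78 of all 151 members of pig 2. For LEF1, 28 of the 36 members with it in pig 1 and 8 of the 62 in pig 2 also had KLRK1.

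**Figure D1:**
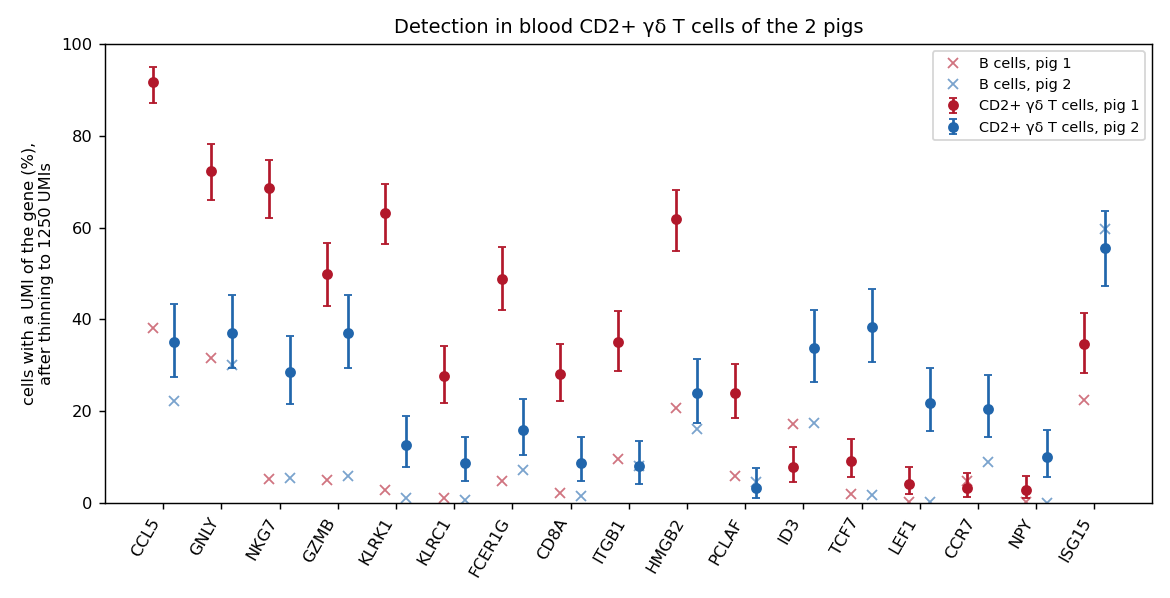
Percent of blood CD2+ γδ T cells with at least 1 UMI of each gene (vertical axis) in pig 1 (red, 217 cells) and pig 2 (blue, 151 cells), after each cell was thinned to the study's minimum number of UMIs, with 95% exact binomial intervals that cover counting error only. Crosses give B cells of the same libraries as the background of free RNA. CCL5, GNLY, NKG7, KLRK1 and PCLAF are higher in pig 1, and ID3, TCF7, LEF1, CCR7 and ISG15 higher in pig 2.

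Compared with CD2- γδ T cells of the same blood, members had higher levels of LCK, IKZF2, GZMB and FCGR3A and lower levels of GATA3, MAF, SRGN and CCR4. In the fit without a block, 172 of 8212 genes (2.09%) were higher in members and 223 (2.72%) lower. With the pig as a block, 373 (4.54%) were higher and 373 (4.54%) lower. The median log2 difference over all genes was 0.01. Counts moved with single sums, to 49 higher and 58 lower without members of pig 1, 351 and 338 without members of pig 2, 55 and 95 without CD2- cells of pig 1, and 18 and 56 without CD2- cells of pig 2. Without the whole ileum library of pig 1 they were 131 and 163, and 347 and 314 with the block. Then 56 of 64 named or listed calls held without the block, and LAT, GNLY, SLA-DRA and SLA-DQB1 were among those that did not (edgeR adjusted p = 0.0621, 0.0559, 0.0715 and 0.0642). Of 64 named or listed genes called, 16 kept their call in each of the 4 fits that left out 1 sum, and the others did not.

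Among transcription factors, 4 of 20 tested genes were higher in members and 3 lower (list median 0.39). GATA3, which directs type 2 programs and early T cell development, was at 50.9 and 54.9 CPM in members and at 443 and 584 CPM in CD2- cells. Its log2 difference was -3.29 ± 0.20 (SE, n = 2 pigs, edgeR adjusted p = 5.78e-06), and the groups lay far apart. MAF, a factor of cytokine-producing T cells, was at 2.35 and 3.05 against 79.0 and 113 CPM (-5.19 ± 0.42, edgeR adjusted p = 7e-05). ID3 was also lower in members (-2.37 ± 0.51, edgeR adjusted p = 0.026), at 98.7 and 426 against 1140 and 1527 CPM. IKZF2 (Helios) was at 191 and 302 against 34.3 and 40.7 CPM (2.69 ± 0.38, edgeR adjusted p = 0.00279). TBX21, TOX and ID2 were higher by 3.69 ± 0.66, 3.31 ± 0.58 and 1.65 ± 0.27 on the log2 scale (edgeR adjusted p = 0.0104, 0.00955 and 0.00652). EOMES, the relative of T-bet, had 40.7 and 42.7 against 6.87 and 1.31 CPM and passed only with the block (edgeR adjusted p = 0.0843, and 0.0146 with the block). GATA3, MAF and IKZF2 kept their calls whichever sum was left out, and TBX21 reached an adjusted p of 0.137 (edgeR) without CD2- cells of pig 2.

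Receptor signalling genes did not move one way. Of 21 tested genes of the CD3 chains and T cell receptor signalling, 2 were higher and 3 lower (list median -0.08). LCK, the kinase that starts T cell receptor signalling and binds CD4 and CD8, was at 417 and 427 CPM in members and at 34.3 and 23.6 CPM in CD2- cells. The difference of 3.88 ± 0.23 (edgeR adjusted p = 5.3e-06) kept its call in every fit that left out 1 sum. PTPN22, a phosphatase of the same pathway, was higher too (2.89 ± 0.35, edgeR adjusted p = 0.000908). The kinase ZAP70 was at 162 and 169 against 393 and 450 CPM (-1.35 ± 0.32, edgeR adjusted p = 0.0325), the CD3 ζ chain gene CD247 at 410 and 734 against 1200 and 1412 CPM (-1.20 ± 0.26, edgeR adjusted p = 0.027), and the adaptor LAT at 73.6 and 119 against 173 and 219 CPM (-1.06 ± 0.27, edgeR adjusted p = 0.0452). TRAT1, which encodes a T cell receptor-associated transmembrane adaptor, was at 251 and 391 against 27.5 and 21 CPM (3.73 ± 0.39, edgeR adjusted p = 0.00035).

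Of 17 cytotoxic granule genes tested, 6 were higher and 2 lower (list median 1.46, and 1.27 without the 2 entries named GZMA). GNLY was at 9006 and 2189 CPM in members and at 1616 and 395 CPM in CD2- cells (2.48 ± 0.62, edgeR adjusted p = 0.045), and the lower member sum stood above the higher CD2- sum. GZMB was at 771 and 621 against 204 and 169 CPM (1.90 ± 0.34, edgeR adjusted p = 0.0107), NKG7 at 1247 and 477 against 270 and 198 CPM (1.89 ± 0.39, edgeR adjusted p = 0.0203), and the granzyme GZMM at 141 and 38.1 against 15.5 and 2.63 CPM (3.48 ± 0.74, edgeR adjusted p = 0.0235). The 2 entries named GZMA were called higher too, but reads of such near-identical genes may be split between them, so their values are uncertain. SRGN, the granule proteoglycan serglycin, was at 495 and 749 against 3397 and 3352 CPM (-2.44 ± 0.22, edgeR adjusted p = 0.00014). PRF1 (perforin) passed only with the block (1.46 ± 0.39, edgeR adjusted p = 0.0577, and 0.0168 with the block). Without members of pig 1, GNLY had an adjusted p of 0.409 (edgeR).

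Of 13 chemokine and cytokine genes tested, CCL5, XCL1 and IFNG were higher and 0 lower. CCL5 was at 17110 and 2868 CPM in members and at 1609 and 365 CPM in CD2- cells (3.34 ± 0.78, edgeR adjusted p = 0.0323, and 0.315 without members of pig 1). XCL1, a chemokine that attracts cross-presenting dendritic cells, was at 106 and 105 against 8.59 and 11.8 CPM (3.35 ± 0.66, edgeR adjusted p = 0.017). IFNG, which encodes interferon γ, was at 25.1 and 9.15 against 3.43 and 0 CPM (edgeR adjusted p = 0.0267).

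Surface receptors divided the classes in both directions. Of 23 homing receptor and integrin genes tested, 5 were higher in members and 2 lower (list median 0.94, and 0.75 with genes at 0 set to their bound). The integrin chain ITGA4 was at 369 and 221 against 110 and 60.4 CPM (1.82 ± 0.33, edgeR adjusted p = 0.0107), and CX3CR1 was higher by 3.77 ± 0.85 (edgeR adjusted p = 0.0282, and 0.315 without members of pig 1). The skin-homing receptor CCR4 was at 1.57 and 3.05 against 75.6 and 24.9 CPM (-4.52 ± 0.68, edgeR adjusted p = 0.00499), and GPR183, a receptor for oxysterols, at 10.2 and 27.5 against 249 and 210 CPM (-3.75 ± 0.37, edgeR adjusted p = 0.000295). FUT7, a fucosyltransferase, was at 0 and 6.10 against 92.7 and 121 CPM (edgeR adjusted p = 0.00279). Of 16 NK and innate receptors, 5 were higher and 1 lower (list median 2.01), with FCGR3A (CD16) at 875 and 627 against 240 and 142 CPM (1.98 ± 0.29, edgeR adjusted p = 0.00345) and CD226, an activating receptor, at 51.7 and 53.4 against 6.87 and 11.8 CPM (2.44 ± 0.37, edgeR adjusted p = 0.00388). KLRK1, at 1073 and 189 against 92.7 and 6.56 CPM, passed only with the block (edgeR adjusted p = 0.0773, and 0.0101 with the block). CD8A was at 267 and 130 against 68.7 and 26.3 CPM (2.11 ± 0.41, edgeR adjusted p = 0.0162).

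Cytokine receptors and antigen presentation genes also differed. Of 14 cytokine receptor genes, 2 were higher and 3 lower. IL2RB, a signalling chain for interleukins 2 and 15, was at 195 and 90.0 against 37.8 and 18.4 CPM (2.41 ± 0.38, edgeR adjusted p = 0.00489). IL6R and IL18R1 were lower, by -3.44 ± 0.48 and -3.63 ± 0.52 on the log2 scale (edgeR adjusted p = 0.00237 and 0.00279). Of 6 MHC class II genes tested, SLA-DRA, SLA-DQB1 and SLA-DMA were higher and 0 lower (list median 1.20). SLA-DRA was at 296 and 281 against 151 and 73.5 CPM (1.37 ± 0.34, edgeR adjusted p = 0.0393). Of the genes that the study had named for CD2- γδ T cells on these samples, BLK and RHEX were part of the class rule and were not tested, SAMSN1 was lower in members (21.9 and 54.9 against 436 and 352 CPM) and IL26 was not called, which is not independent evidence of direction. Of 11 naive and circulating T cell genes tested, 0 were higher in members and 1 lower (list median -0.76). With the block, 5 of these 11 were lower and 0 higher. Of 12 cell cycle genes 0 passed, and 5 were higher with the block. Of 10 interferon-stimulated genes 0 passed, and 4 were higher with the block.

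The naming rule by size of difference added genes outside the lists. DPPA5, an RNA-binding protein known from stem cells, had no UMI in members and 91 UMIs in CD2- cells (27.5 and 98.4 CPM), which makes it at least 42.2-fold lower in members against a floor of 3 counts over the class. FCER1A, a chain of the high-affinity IgE receptor, had 0.783 and 0 CPM in members and 373 and 40.7 CPM in CD2- cells (edgeR adjusted p = 0.0282). IGFBP2, an insulin-like growth factor binding protein, was at 3.92 and 3.05 against 77.3 and 98.4 CPM (-4.59 ± 0.68, edgeR adjusted p = 0.0037). FAM49A and PLEK, a cytoskeleton-linked substrate of protein kinase C, were higher by 4.08 ± 0.77 and 3.72 ± 0.59 (edgeR adjusted p = 0.013 and 0.00508). Of markers of other cells, 1 of 3 tested B cell markers was lower (CD79A, 0.783 and 1.53 against 12 and 13.1 CPM) and 0 of 8 monocyte markers passed. The 9 listed monocyte genes summed to 424 and 793 CPM in members and 216 and 347 CPM in CD2- cells, where CD68, S100A8 and S100A12 were at 0 in pig 1. Their part in the differences was not tested.

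NPY was higher in members than in each of the 4 other classes. This gene encodes neuropeptide Y, a peptide transmitter of neurons. In members it was at 30.5 and 94.6 CPM, from 39 and 62 UMIs in 7 cells of pig 1 and 24 cells of pig 2. CD2- γδ T cells had 0 and 1.31 CPM, CD8 αβ T cells 0.471 and 0.855, NK cells 2.25 and 0.664, and ileal CD2+ γδ T cells 2.19 and 2.11. It passed against CD2- γδ T cells, NK cells and ileal CD2+ γδ T cells (edgeR adjusted p = 0.018, 0.0208 and 0.00242), and against CD8 αβ T cells with the block only (edgeR adjusted p = 0.0739, and 0.0066 with the block). Of the cells with NPY, 3 of 7 and 6 of 24 also had CCR7, and 1 and 4 had CD8A. After thinning, 2.76% (1.02 to 5.92) and 9.93% (5.67 to 15.9) of members had an NPY UMI, against 0.0704% and 0% of B cells.

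**Figure D2:**
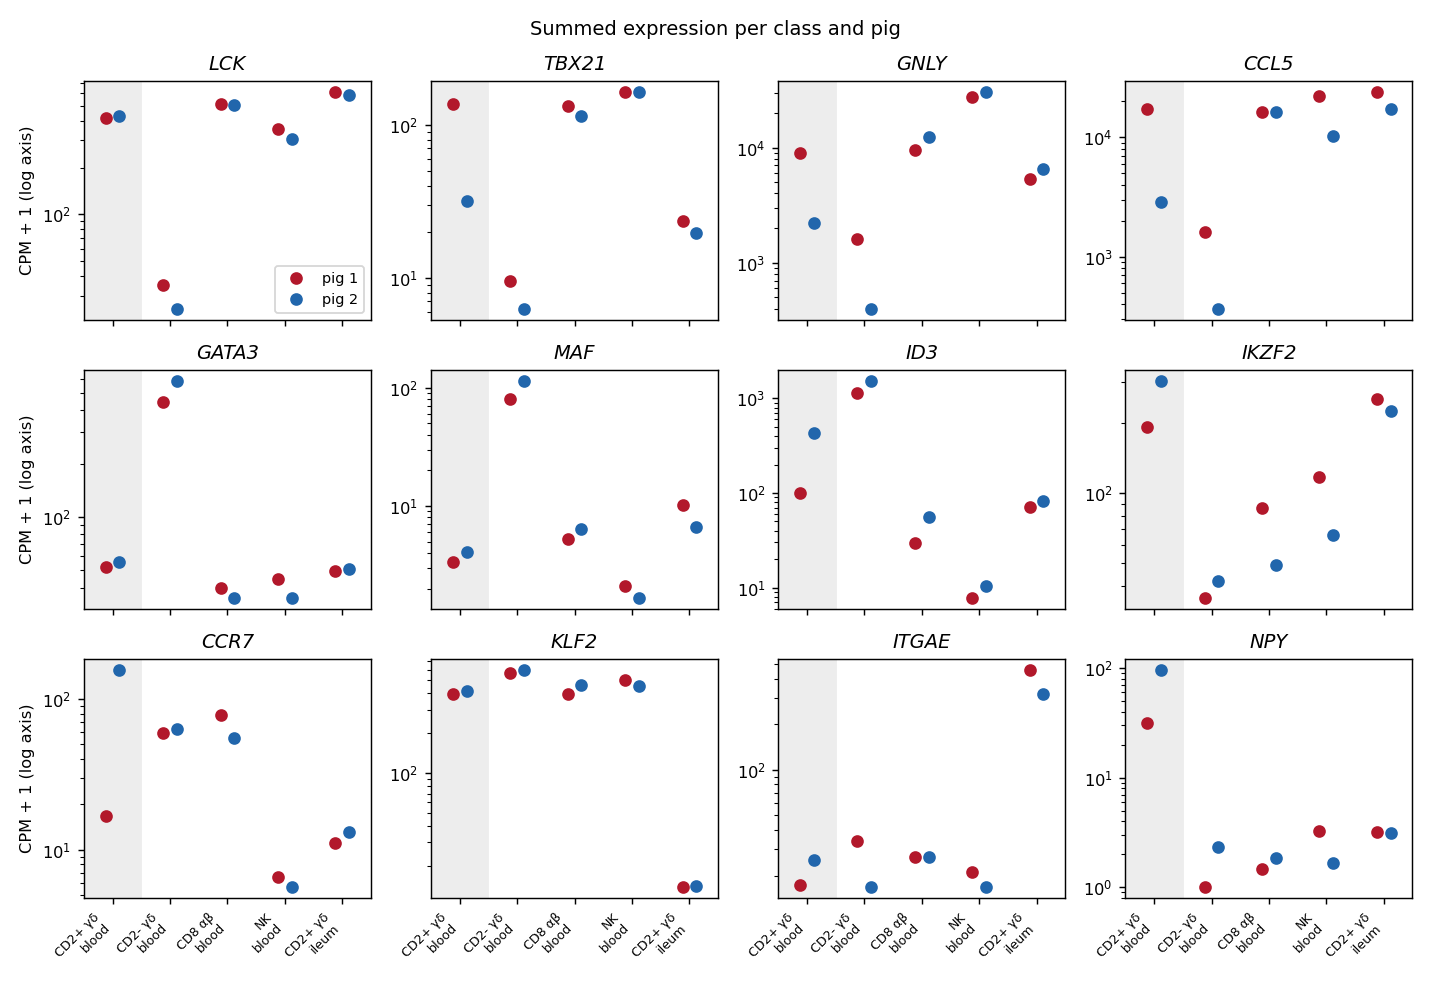
Levels of 12 genes in each cell class, as CPM plus 1 on a log axis, with 1 point for the sum of each pig (red, pig 1; blue, pig 2). Grey marks the blood CD2+ γδ T cells. LCK and TBX21 are lowest, and GATA3 and MAF highest, in CD2- γδ T cells, KLF2 is lowest and ITGAE highest in the ileum, and NPY is highest in blood CD2+ γδ T cells.

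Of the 3 comparisons with other blood classes, that with CD8 αβ T cells called the fewest genes. In the fit without a block, 1 of 8212 genes (0.0122%) passed, a gene with no symbol (ENSSSCG00000023584) at 626 and 581 CPM in members and at 87.2 and 109 CPM in CD8 αβ T cells (2.62 ± 0.17, edgeR adjusted p = 3.74e-05). With the block, 7 genes (0.0852%) passed. They were this gene, ID3, IKZF2 and NPY on the higher side, GZMB on the lower side, and 2 more genes without a symbol. DESeq2 called 19. At an unadjusted p under 0.05 there were 483 genes, so that the short list does not show that the classes were alike. Without members of pig 1 the count was 40, and without CD8 αβ T cells of pig 1 it was 7. It was 2 without the whole ileum library of pig 1, with GZMB as the added gene, and 10 with the block. IKZF2 was at 191 and 302 against 84.8 and 47.9 CPM (1.90 ± 0.34, edgeR adjusted p = 0.135, and 0.00934 with the block). GZMB was at 771 and 621 against 2158 and 5241 CPM (-2.41 ± 0.34, edgeR adjusted p = 0.0594, 0.0066 with the block, and 0.0438 without the whole ileum library of pig 1), and the groups did not overlap. GZMK, a granzyme of early effector cells, was at 18.8 and 12.2 against 80.6 and 95.8 CPM and passed in neither fit (edgeR adjusted p = 0.35, and 0.0814 with the block). LCK, TBX21 and CX3CR1, which set members apart from CD2- γδ T cells, passed in neither fit here.

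Against NK cells, members had higher levels of ID3, TCF7, CD5, CD247 and ZAP70 and lower levels of FCGR3A, PRF1, SYK and NFIL3. Of 8208 genes, 72 (0.877%) were higher in members and 118 (1.44%) lower. With the block, 263 (3.2%) were higher and 392 (4.78%) lower. Without NK cells of pig 2 there were 1 and 2, and without NK cells of pig 1 there were 24 and 52. Without the whole ileum library of pig 1 there were 41 and 51, and 247 and 318 with the block. Then 24 of 43 named or listed calls held without the block, and CCR7, LEF1, S1PR1, IKZF2, CSF1R and SLA-DRA were among those that did not (edgeR adjusted p = 0.0755, 0.0683, 0.0565, 0.0763, 0.0664 and 0.0683). FGL2 and SPINT2 alone of 43 named or listed genes kept their calls in all 4 fits that left out 1 sum.

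Of 14 coreceptor and costimulation genes tested, 3 were higher in members and 0 lower. The list median was 2.71, and 2.28 without genes that had at most 3 UMIs in both classes. CD5 and CD6, scavenger receptor family molecules that tune T cell receptor signals, were at 27.4 and 113 against 5.62 and 3.98 CPM, and at 24.3 and 56.4 against 2.25 and 0.664 CPM (edgeR adjusted p = 0.0191 and 0.0147). Of 20 tested genes of the CD3 chains and T cell receptor signalling, 2 were higher and 2 lower (list median 0.16). CD247 was higher by 1.75 ± 0.27 (edgeR adjusted p = 0.0147) and ZAP70 by 1.98 ± 0.35 (edgeR adjusted p = 0.0191), so that both lay between CD2- γδ T cells and NK cells in level. SYK, the kinase related to ZAP70 that innate cells use, was at 20.4 and 18.3 against 140 and 118 CPM (-2.72 ± 0.45, edgeR adjusted p = 0.0176), and the phosphatase gene PTPN6 at 248 and 166 against 401 and 499 CPM (-1.11 ± 0.22, edgeR adjusted p = 0.0279, and 0.0565 without the whole ileum library of pig 1). Of 11 naive and circulating T cell genes, 4 were higher and 0 lower (list median 1.56). CCR7, TCF7, LEF1 and S1PR1, the receptor for exit from tissues, were higher by 3.93 ± 0.92, 3.20 ± 0.58, 2.65 ± 0.62 and 2.16 ± 0.45 (edgeR adjusted p = 0.0495, 0.0197, 0.0488 and 0.0363). All 4 were higher in members of pig 2 than in those of pig 1. ID3 was at 98.7 and 426 against 6.74 and 9.30 CPM (4.95 ± 0.67, edgeR adjusted p = 0.00863), and IKZF2 was higher by 1.46 ± 0.34 (edgeR adjusted p = 0.0494).

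On the lower side, 3 of 13 NK and innate receptors tested were lower and 0 higher (list median -1.26). FCGR3A was at 875 and 627 against 3283 and 2557 CPM (-1.96 ± 0.29, edgeR adjusted p = 0.0115). Of 17 cytotoxic granule genes 2 were lower and 0 higher, PRF1 at 104 and 61.0 against 245 and 306 CPM (-1.71 ± 0.33, edgeR adjusted p = 0.0259) and the cathepsin gene CTSW. GNLY, at 9006 and 2189 against 27685 and 30447 CPM, passed only with the block (-2.38 ± 0.62, edgeR adjusted p = 0.0687, and 0.0113 with the block). The transcription factors NFIL3 and ID2, both known for innate lymphoid development, were lower by -2.37 ± 0.30 and -1.53 ± 0.25 on the log2 scale (edgeR adjusted p = 0.00764 and 0.0176). Of 6 MHC class II genes 5 were lower and 0 higher (list median -1.48), with SLA-DRA at 296 and 281 against 962 and 729 CPM. The calls of SLA-DRA, SLA-DQB1, SLA-DMA and SLA-DMB were lost without the whole ileum library of pig 1. FGL2, a secreted fibrinogen-like protein, was at 33.7 and 39.7 against 320 and 326 CPM (-3.16 ± 0.27, edgeR adjusted p = 0.000347), and the protease inhibitor SPINT2 at 14.9 and 13.7 against 93.2 and 125 CPM (-2.92 ± 0.24, edgeR adjusted p = 0.000347). Monocyte markers were also higher in NK cells, where the 9 genes summed to 1798 and 2526 CPM against 424 and 793 CPM in members, and 2 of 8 passed (CST3 and CSF1R). None of the 9 was at 0 in either class, and their part in the differences from NK cells was not tested.

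CD8A, which the selection did not use, was detected in part of the members. At least 1 CD8A UMI was found in 149 of 217 members of pig 1 (68.7%) and in 50 of 151 of pig 2 (33.1%). After thinning it was found in 28.1% (22.2 to 34.6) and 8.61% (4.66 to 14.3) of members, and in 2.11% and 1.42% of B cells. Members with CD8A were deeper, with a median of 5425 UMIs against 3160 in pig 1 and 3596 against 3159 in pig 2. The part of depth in the split was not tested. Summed per pig, 0 of 3492 genes (0%) passed without a block (170 at an unadjusted p under 0.05, and 0 by DESeq2). With the block, 57 genes (1.63%) were higher in members with CD8A and 19 (0.544%) lower. The blocked fit had 1 residual degree of freedom. Its count of 76 became 130 without doublets and 106 when at least 2 TRDC UMIs were asked for, both tried after seeing the data.

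With the block, 7 of 11 cell cycle genes tested were higher in members with CD8A and 0 lower (list median 1.19). PCLAF was at 683 and 502 CPM in members with CD8A and at 216 and 8.07 CPM in members without it (edgeR with block, adjusted p = 0.000554). PCNA, the replication clamp, was at 366 and 255 against 139 and 51.1 CPM (edgeR with block, adjusted p = 0.000554), and TUBA1B, a tubulin, at 1484 and 1131 against 633 and 584 CPM (edgeR with block, adjusted p = 0.000321). MCM4, a subunit of the replicative helicase, was at 110 and 62.8 against 27.0 and 13.5 CPM (edgeR with block, adjusted p = 0.00436). After thinning, PCLAF was found in 30.9% of members with CD8A and 8.82% without it in pig 1. In pig 2 the shares were 8% and 0.990%. PCLAF was found in 12 members of pig 2 before thinning, and the cell with most held 43 of 131 UMIs. Thinned shares in pig 2 kept this order for PCNA (16% and 3.96%) and TUBA1B (48% and 40.6%). They did not for STMN1, another gene the study linked to replication (34% and 48.5%). The CD8A groups were set on unthinned counts, so thinning does not remove depth from the split itself. NKG7 (1365 and 852 against 899 and 258 CPM) and GNLY (9674 and 4691 against 7229 and 646 CPM) were higher too (edgeR with block, adjusted p = 0.00334 and 0.00436), and CCL5 and KLRK1 did not pass (edgeR with block, adjusted p = 0.0806 and 0.0705). HBB was also higher with the block, at 8517 and 287 against 1559 and 285 CPM. In members of pig 1, the cell with most HBB held 2891 of 8880 HBB UMIs. After thinning, HBB was found in 72.5% of members with CD8A and 77.9% without it in pig 1. In pig 2 the shares were 34% and 32.7%. The part of HBB in these differences was not tested.

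Of 9 naive and circulating T cell genes tested, 2 were lower in members with CD8A with the block and 0 higher (list median -0.85), and of 13 transcription factors 3 were lower and 0 higher (list median -0.60). NPY was at 10.0 and 39.3 CPM in members with CD8A and at 112 and 140 CPM in members without it (edgeR with block, adjusted p = 0.000456). ID3 was at 56.3 and 306 against 270 and 541 CPM (edgeR with block, adjusted p = 0.00334), and TOX, a factor of lymphocyte development and persistence, at 23.1 and 47.1 against 69.5 and 135 CPM (edgeR with block, adjusted p = 0.0111). SLAMF7, a receptor of the SLAM family, was at 12.1 and 19.6 against 54.0 and 75.3 CPM (edgeR with block, adjusted p = 0.0109). CCR7 and TCF7 were lower with adjusted p-values near the threshold (edgeR with block, 0.0496 and 0.0305). Thinned detection kept the order of ID3 (4.70% and 14.7% in pig 1, 22% and 39.6% in pig 2) and of NPY, but for TCF7 it was 6.71% and 14.7% in pig 1 and 42% and 36.6% in pig 2. FCER1G, CX3CR1 and TBX21 did not pass in either fit.

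**Figure D3:**
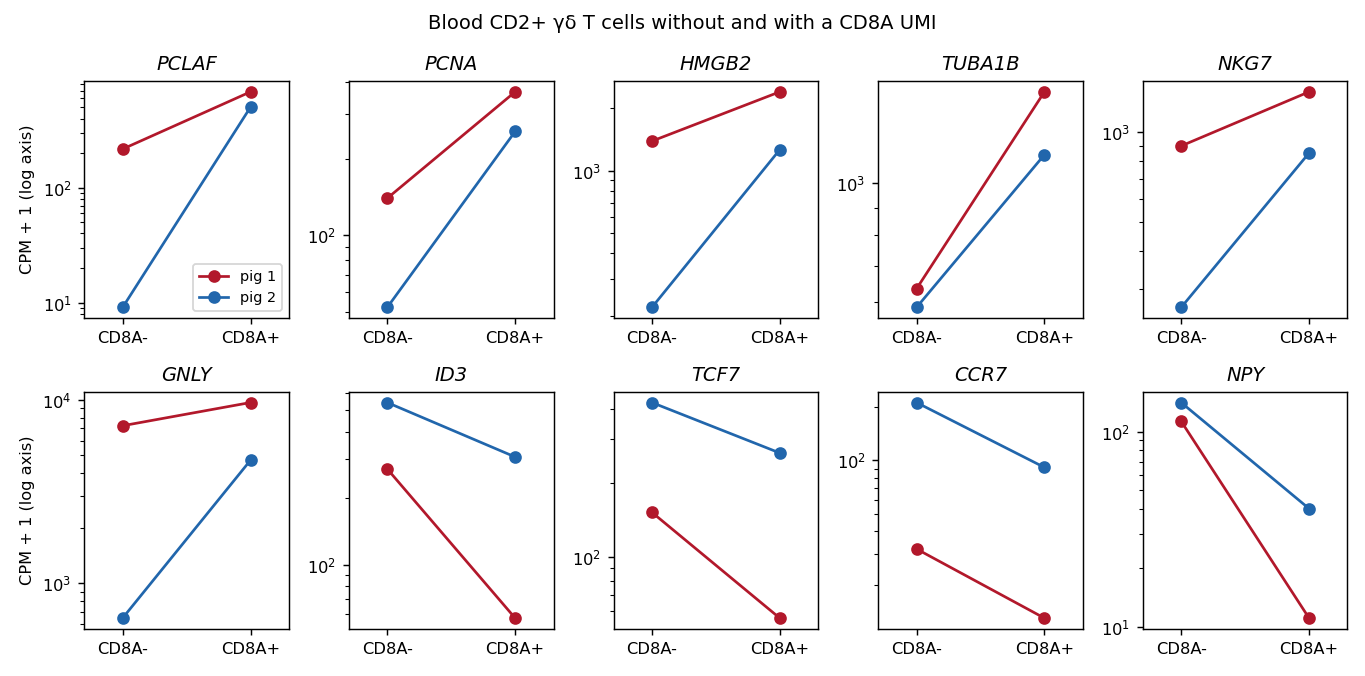
Levels of 10 genes in blood CD2+ γδ T cells without and with at least 1 CD8A UMI, as CPM plus 1 on a log axis, with 1 line for each pig (red, pig 1; blue, pig 2). PCLAF, PCNA, HMGB2, TUBA1B, NKG7 and GNLY are higher with CD8A in both pigs, and ID3, TCF7, CCR7 and NPY lower.

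CD2+ γδ T cells of blood and ileum, found by the same rule, differed in many genes. Of 8212 genes, 532 (6.48%) were higher in blood and 547 (6.66%) lower. With the block, 915 (11.1%) were higher and 872 (10.6%) lower. Without the whole ileum library of pig 1 there were 382 and 418, and 821 and 795 with the block. Then 89 of 107 named or listed calls held without the block. Without both whole ileum libraries there were 367 and 421. Without members of pig 1 there were 269 and 252, without ileal cells of pig 1 212 and 244, and without ileal cells of pig 2 143 and 250. Of 107 named or listed genes called, 45 kept their call in each fit that left out 1 sum. Tissue and the steps by which blood and ileal cells were prepared cannot be told apart.

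Genes of recirculation and of exit from tissues were higher in blood. Of 23 homing receptors and integrins tested, 9 were higher and 6 lower (list median 0.51). KLF2, the transcription factor that drives S1PR1, was at 393 and 416 CPM in blood and at 12.8 and 13.1 CPM in ileum (4.96 ± 0.22, edgeR adjusted p = 3.34e-07). S1PR1 was at 68.1 and 166 against 8.39 and 3.99 CPM (4.16 ± 0.46, edgeR adjusted p = 0.000212). S1PR5, a receptor for exit of cytotoxic cells, was at 79.9 and 18.3 against 0.182 and 0.470 CPM, and CX3CR1 at 172 and 24.4 against 0.365 and 0 CPM (edgeR adjusted p = 0.000413 and 0.000248). The β2 integrin gene ITGB2 was at 529 and 224 against 23.9 and 18.8 CPM (4.14 ± 0.37, edgeR adjusted p = 4.94e-05). S100A4, a calcium-binding protein of motile cells, was at 1099 and 763 against 32.5 and 17.6 CPM, and RASA3, a Ras-family inhibitor, at 163 and 177 against 5.47 and 4.93 CPM (3.09 CPM in ileum of pig 1 without its whole ileum library). All of these except S1PR5 and CX3CR1, which had 3 or fewer UMIs in the ileum, were measured well above their floor in each sum. CCR7 (2.80 ± 0.69, edgeR adjusted p = 0.0212) and LEF1 (3.19 ± 0.54, edgeR adjusted p = 0.00319) were higher in blood. Without members of pig 2, in which CCR7 was high, its adjusted p was 0.44 (edgeR). TCF7, at 73.6 and 342 against 183 and 190 CPM, did not pass, and blood and ileum overlapped.

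Genes of tissue residence and activation were lower in blood. ITGAE (CD103), the integrin that binds epithelial E-cadherin, was at 16.4 and 24.4 CPM in blood and at 455 and 315 CPM in ileum (-4.29 ± 0.36, edgeR adjusted p = 3.59e-05). The gut-homing receptor CCR9 was at 11 and 62.5 against 186 and 185 CPM (-2.51 ± 0.51, edgeR adjusted p = 0.00861). CD69 and CXCR4 were lower by -2.98 ± 0.51 and -2.81 ± 0.51 on the log2 scale (edgeR adjusted p = 0.00327 and 0.00504). Of 14 immediate early and activation genes, 11 were lower in blood and 0 higher (list median -2.75), with RGS1, a regulator of chemokine receptor signals, at 39.2 and 25.9 against 1546 and 1371 CPM and FOS at 14.9 and 15.3 against 235 and 196 CPM. Such genes also respond to warm dissociation, which the ileal cells alone went through.

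Effector genes were more often lower than higher in blood. Of 17 cytotoxic granule genes 2 were higher and 7 lower (list median -0.64, and -0.59 without the 2 entries named GZMA). Of 13 chemokine and cytokine genes 1 was higher and 6 lower (list median -1.49). The higher genes were LYST, a regulator of granule traffic, at 24.3 and 30.5 against 6.02 and 5.63 CPM (2.19 ± 0.28, edgeR adjusted p = 0.000488), GZMM (edgeR adjusted p = 0.0497, and 0.0973 without the whole ileum library of pig 1) and LTB, which encodes lymphotoxin β, at 132 and 461 against 77.7 and 77.0 CPM (edgeR adjusted p = 0.0271). GZMB was at 771 and 621 CPM in blood and at 7779 and 7652 CPM in ileum (-3.47 ± 0.36, edgeR adjusted p = 0.000129), XCL1 at 106 and 105 against 937 and 965 CPM (-3.17 ± 0.50, edgeR adjusted p = 0.00201) and PRF1 lower by -1.54 ± 0.33 on the log2 scale (edgeR adjusted p = 0.0105). GNLY, CCL5 and KLRK1 did not pass (edgeR adjusted p = 0.961, 0.382 and 0.576). GNLY in ileum, at 5330 and 6470 CPM, lay between the 2 blood sums, and CCL5 (23845 and 17232 CPM) and KLRK1 (1120 and 1272 CPM) lay above both. IL22, a cytokine that acts on epithelium, had no UMI in blood members and 47.8 and 13.4 CPM in ileum, which makes it at least 20.7-fold lower in blood. Without both whole ileum libraries IL22 was no longer called. Among transcription factors, 6 of 20 were higher in blood and 2 lower. EOMES was at 40.7 and 42.7 against 2.37 and 0.939 CPM (4.55 ± 0.78, edgeR adjusted p = 0.00443), and NFIL3 at 11.7 and 9.15 against 205 and 210 CPM (-4.27 ± 0.28, edgeR adjusted p = 5.05e-06). TBX21 was higher by 2.08 ± 0.44 (edgeR adjusted p = 0.0103), but its adjusted p was 0.412 (edgeR) without members of pig 1. CD3D and CD3G were lower in blood (-1.82 ± 0.25 and -1.49 ± 0.14, edgeR adjusted p = 0.00115 and 9.38e-05), and IKZF2, at 191 and 302 against 254 and 224 CPM, did not pass.

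Markers of other cells moved with the tissue. Of 8 monocyte markers tested, 5 were higher in blood, where the 9 listed genes summed to 424 and 793 CPM, against 137 and 116 CPM in ileum with S100A8, S100A9 and S100A12 at 0. Of 4 red cell and platelet markers, 2 were higher in blood (sums of 7014 and 467 CPM against 12.2 and 108 CPM). Of 5 epithelial markers, 4 were lower in blood and 5 with the block. The list summed to 2.35 and 1.53 CPM in blood, with EPCAM, KRT8 and VIL1 at 0, and to 2376 and 478 CPM in ileum. FABP6, the bile acid carrier of enterocytes, gave 2143 and 304 CPM of the latter. Several genes named for the size of their difference were of this kind (PPBP, S100A12 and FCN1 on the blood side, FABP6, KRT8, SPINK4 and REG4 on the ileal side). The calls of CD14, LYZ, ALAS2, SPINK4 and REG4 were lost without the whole ileum library of pig 1 (edgeR adjusted p = 0.0531, 0.0941, 0.0512, 0.0651 and 0.0553). The part of RNA from other cells in the remaining differences was not tested.

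The difference between blood and ileum was also set against the same difference in CD8 αβ T cells. The interaction test called 0 of 8212 genes (0%) by edgeR without a block, with 278 at an unadjusted p under 0.05, 2 by DESeq2 and 1 (0.0122%) with the block. The counts were 0, and 1 with the block, without the whole ileum library of pig 1. The called gene was FGR, a Src-family kinase, in both blocked fits. It was at 79.1 and 50.3 CPM in blood and 101 and 84.3 CPM in ileal CD2+ γδ T cells, whereas CD8 αβ T cells had 72.6 and 39.0 CPM in blood and 14.5 and 9.20 CPM in ileum (-2.67 ± 0.44, edgeR adjusted p = 0.465, and 0.0114 with the block). The other named differences between blood and ileum were not shown to differ between CD2+ γδ and CD8 αβ T cells.

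**Figure D4:**
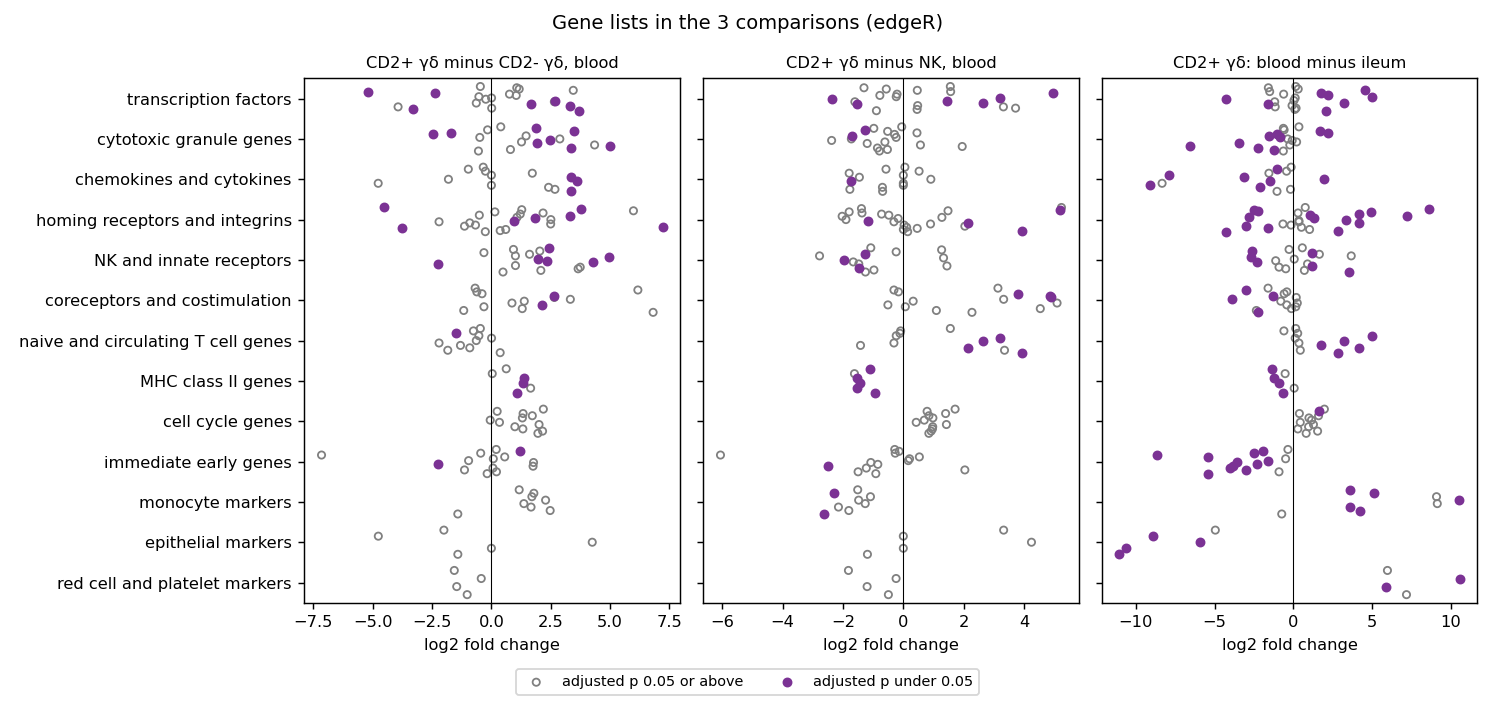
Log2 fold changes of all tested genes of 13 lists (rows) in 3 comparisons (panels), from the edgeR fit without a block, with filled points for an adjusted p under 0.05. Genes with no UMI in a class stand at their fitted value, which is not a bound. Cytotoxic granule genes lie mostly to the right against CD2- γδ T cells, MHC class II genes to the left against NK cells, and immediate early genes to the left against the ileum.

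The share of CD2+ γδ T cells was lower in both PBMC libraries than in each ileal library. They were 3.37% of kept cells in PBMC of pig 1 and 2.22% in pig 2 (2.79% ± 0.811, SD, n = 2 libraries). In the 6 ileal libraries they were 3.39% to 23.1%, with a median of 6.74%. The lowest of these, whole ileum of pig 2 (interval 3.00 to 3.82), was not separated from PBMC of pig 1 (2.94 to 3.84). Of CD3E-positive cells they were 6.30% (5.52 to 7.17) and 4.99% (4.24 to 5.83) in blood, and 10.7% to 28.1% with a median of 15.8% in ileum, with no overlap. The exact two-sided permutation test of 2 against 6 libraries gave p = 0.0714 for both, the smallest value it can give, so that this design cannot reach the threshold of 0.05. Libraries of a pig are also not independent. The blood share minus the mean ileal share was -7.77 percentage points of kept cells and -12.5 of CD3E-positive cells, and -8.10 and -12.5 without the whole ileum library of pig 1. After thinning, the mean shares of CD3E-positive cells were 3.09% in blood and 14.5% in ileum. Of CD2+ and CD2- γδ T cells together, members were 47.7% in pig 1 and 32.5% in pig 2, against 78.6% to 95.4% in the ileal libraries. The rule left out 61 and 37 CD2- cells without BLK or RHEX and 35 and 34 CD2+ cells with either of them, which belonged to neither class.

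**Figure D5:**
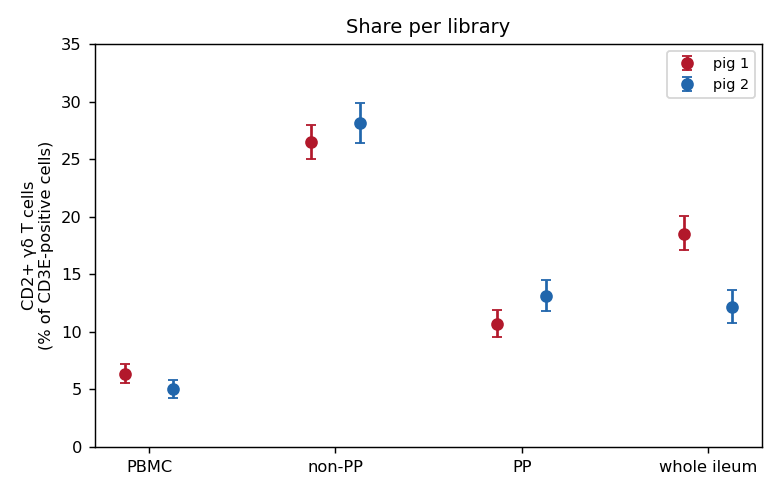
Blood or ileal CD2+ γδ T cells as a percent of CD3E-positive cells in each library (red, pig 1; blue, pig 2), with 95% exact binomial intervals that cover counting error only. The 2 PBMC libraries, at 6.30% and 4.99%, lie below all 6 ileal libraries, which range from 10.7% to 28.1%.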

How the data were processed

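Single-cell libraries (10x Chromium, 3′ v2) of ileum and PBMC from 2 pigs were used, as 8 libraries of 4 sequencing runs each, 1 library being 1 replicate. Values are unnormalized UMI counts for each gene in each barcode, which the authors deposited as made with Cell Ranger (version 4.0.6 per the submitters' processing notes) before their removal of ambient RNA, poor cells and doublets. Their cell annotation was not used here. Of 25880 genes, 17732 carried a symbol in the files, 969 were named from the supplied table and 20 from identifiers the study gives, and 7159 stayed unnamed.

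Barcodes with at least 500 UMIs were read, and the study's limits (1250 UMIs, 550 genes, 12.5% mitochondrial UMIs) were applied. Doublets were scored with Scrublet (scanpy 1.11.5, expected rate 0.07, limit 0.25), kept in the main fits and left out in an alternative. Counts were summed per pig and class, filtered with filterByExpr, scaled by TMM and tested with the quasi-likelihood test of edgeR 4.0.16 (R 4.3.3), with 14 sums in 1 fit and 4 sums for the CD8A split. The call was an adjusted p under 0.05, and 2 sums a class limit the precision. SE is the log2 fold change over the root of F. The pairing comes from the animals: each pig gave every class. Deviations of same-pig sums correlated at 0.0549 to 0.578. P-values measure the spread between these 2 pigs only, with 1 spread per gene shared by the classes of a fit. Members differed more between the pigs than the other classes measured. Of their genes 6.48% were more than 2-fold apart, against 0.755% to 2.81%. The shared spread may therefore be too small for members. Zero counts were bounded with 3 counts over the class. Shares have 95% Clopper-Pearson intervals and an exact permutation test. Alternatives were DESeq2 1.42.0, RLE scaling, no filter, the block, 1 sum or library left out, no doublets, at least 2 TRDC UMIs, no whole ileum libraries, and no whole ileum library of pig 1 (added for the blood comparisons and the block after seeing the data). The scripts were tested on simulated data.

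Members and gene lists were chosen with earlier results of these data known. Named genes were members of the lists and, per comparison, the 10 highest and 10 lowest log2 fold changes among called genes with a symbol, over 1 on the log2 scale, of 1 direction in both animals and with a mean of at least 50 CPM. FGR, MCM4 and the unnamed gene were named after their values were seen. Withheld items are not reported here.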

Additional observations from a re-analysis of the deposited data

How the results depend on the processing

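For named or listed genes called against CD2- γδ T cells, NK cells and the ileum, no log2 fold change changed sign under the alternatives. No share difference changed sign either. Genes named in the other comparisons were not followed in this way. The balance of calls turned in several fits. Against CD2- γδ T cells, 172 and 223 became 506 and 355 without the filter. They became 347 and 314 with the block and without the whole ileum library of pig 1. Against the ileum, 532 and 547 became 589 and 461 by DESeq2, 557 and 517 with RLE scaling and 915 and 872 with the block. They became 503 and 492 with at least 2 TRDC UMIs. The balance also turned in some fits that left out 1 sum. Without the filter on low counts the calls were 506 and 355 against CD2- γδ T cells, 144 against CD8 αβ T cells, 303 and 481 against NK cells, 885 lower in blood than in ileum, 64 in the interaction and 70 for CD8A. DESeq2 called 19 against CD8 αβ T cells, 124 and 192 against NK cells and 2 in the interaction. With the pig as a block, which pairs the samples, the calls were 373 and 373, 7, 263 and 392, 915 and 872, 1, and 76 in the order of the report, and each named call of the 3 large comparisons was kept. Without the whole ileum library of pig 1, an alternative chosen for the blood comparisons and for the block after seeing the data, there were 131 and 163, 2, and 41 and 51 in the 3 blood comparisons, and with the block 347 and 314, 10, 247 and 318, 821 and 795, and 1. Without doublets there were 111 and 246 against NK cells, and 130 for CD8A with the block. With at least 2 TRDC UMIs there were 3 against CD8 αβ T cells, and 106 for CD8A with the block. Leaving out 1 sum gave 18 to 351 higher and 56 to 338 lower against CD2- γδ T cells, 1 to 40 against CD8 αβ T cells, 1 to 104 and 2 to 109 against NK cells, 143 to 556 and 244 to 478 against the ileum, 0 to 2 in the interaction and 0 to 1 for CD8A. In those fits a lone sum is assumed to vary like the other classes. The blood share minus the ileal share ranged from -9.20 to -5.27 percentage points of kept cells and from -14.0 to -10.5 of CD3E-positive cells when 1 library was left out. The causes were not tested. With 2 pigs, 368 member cells and 631535 UMIs in the smaller sum, genes of a few CPM rest on few counts.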
